A study of Homo sapiens with 6 samples.

Results

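The 10 genes described here act in the contact between myeloma cells and bone marrow and in bone disease: DKK1, CCL3, CXCR4, ITGA4, ITGB1, IL6R, IL6ST, HGF, SPP1 and VEGFA. They were chosen by name, as 10 of 19974 protein-coding genes, and each was studied through the open chromatin peaks within 50 kb of its gene body on hg38. The assay, ATAC-seq, uses Tn5 transposase to cut accessible DNA, and was run on KMS-11, an established human plasma cell myeloma line with the genotype label WT. The 3 control libraries carry the treatment label LentiV2, a lentiviral vector, and the 3 ATF4 knockdown libraries the label LentiV2_ATF4g3. Each group was labelled as 3 biological replicates. All knockdown libraries share 1 guide label, no vector with a guide against another target was labelled, and no level of ATF4 itself was available, so the knockdown could not be checked here. In such bulk libraries, fewer cells with an open site and less opening per cell cannot be told apart.

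Myeloma cells in bone marrow bind stromal cells and matrix through chemokine receptors and integrins, and grow on interleukin 6 from their surroundings. They also tip the balance of bone by blocking bone-forming osteoblasts and activating bone-resorbing osteoclasts. DKK1 is a secreted inhibitor of Wnt signalling that holds back osteoblasts, and CCL3 is a chemokine that drives osteoclast formation. SPP1 (osteopontin) is a bone matrix protein bound by integrins, and HGF and VEGFA are growth factors that act on the MET and VEGF receptors. CXCR4 is the receptor for CXCL12, ITGA4 and ITGB1 form the integrin VLA-4, and IL6R and IL6ST (gp130) form the interleukin 6 receptor. ATF4 is a transcription factor of the amino acid and unfolded protein stress response.

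The promoters differed in base composition and in short core motifs. The 250 bases before the transcription start were read for 9 of the 10 genes from a RefSeq table (GRCh38.p14, the assembly of hg38), written 5′ to 3′ on the strand of the gene. The first 3 below carry TATAAA. The last, HGF, is shown because no library had a peak past the strength cutoff used below at its start. Capitals mark TATAAA, the core of the TATA box, and GGGCGG, the GC box core, on either strand.
DKK1 (chr10:52314031-52314280, plus strand): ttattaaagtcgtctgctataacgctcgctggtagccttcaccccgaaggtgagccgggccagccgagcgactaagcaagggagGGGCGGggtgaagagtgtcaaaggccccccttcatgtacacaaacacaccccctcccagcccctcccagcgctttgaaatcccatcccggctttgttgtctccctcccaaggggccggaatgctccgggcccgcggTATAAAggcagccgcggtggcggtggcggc
CCL3 (chr17:36090144-36090393, minus strand): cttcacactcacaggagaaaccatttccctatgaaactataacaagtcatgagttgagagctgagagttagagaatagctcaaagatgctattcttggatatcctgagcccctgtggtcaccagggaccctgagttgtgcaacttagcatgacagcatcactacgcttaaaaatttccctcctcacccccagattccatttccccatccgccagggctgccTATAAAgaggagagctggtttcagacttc
CXCR4 (chr2:136118150-136118399, minus strand): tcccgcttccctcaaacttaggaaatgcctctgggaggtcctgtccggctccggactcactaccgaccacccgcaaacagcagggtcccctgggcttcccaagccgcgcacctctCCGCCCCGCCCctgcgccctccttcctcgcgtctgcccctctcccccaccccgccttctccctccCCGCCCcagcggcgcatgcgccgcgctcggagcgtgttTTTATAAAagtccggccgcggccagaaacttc
HGF (chr7:81770048-81770297, minus strand): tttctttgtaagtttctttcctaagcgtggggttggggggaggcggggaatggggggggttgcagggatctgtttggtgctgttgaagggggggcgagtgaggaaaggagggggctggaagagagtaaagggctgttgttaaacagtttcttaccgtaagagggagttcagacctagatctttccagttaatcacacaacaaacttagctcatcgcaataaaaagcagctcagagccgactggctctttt
TATAAA ended 24, 23 and 24 bases before the start of DKK1, CCL3 and CXCR4, on the strand of each gene. In CXCR4 it overlapped a match on the other strand. TATAAA was found on either strand in 9.36% of 15812 promoters of this length, and GGGCGG in 55.8%. GGGCGG was found in the promoters of DKK1, CXCR4, IL6ST and ITGB1. No match to TGATGNAA, the composite element read by ATF4 with C/EBP proteins, lay in the 9 windows, and 2.21% of all promoters held one. The same was true of TGACGTCA (the cAMP response element, 2.29% of promoters), TGANTCA (AP-1, 5%), the NF-kB decamer (5.7%) and TTCNNNGAA (STAT, 6.12%). The GC content ran from 44.8% in SPP1 and 47.2% in CCL3 to 78.4% in ITGB1, beside a median of 62% over all promoters.

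Libraries differed between the groups in ways that touch every gene. Control libraries covered 67.04 to 70.7 Mb with peaks of a median width of 302 to 347 bp. Knockdown libraries covered 62.98 to 63.88 Mb with peaks of 247 to 262 bp, and the background pileup that the caller used was 2.79 to 3.52 in controls and 2.15 to 2.51 in knockdown. The −log10 q of a peak, the caller's confidence that it exceeds its background, was lower in every knockdown than in every control library at 76.3% of the 68050 regions listed in all 6 libraries. The part that depth and background play in the results below was not tested. Comparisons were therefore made on covered length scaled to equal totals, on ranks over the same 68050 regions, and on width relative to the library median. Peaks of −log10 q 2 or more were counted over the promoter window, from 250 bases before the start to 50 after it. Of 5 plasma cell markers with a promoter entry, 5 had such a peak in all 6 libraries, and of 3 T and NK cell markers 0 had one in any. Such a peak in every library was also seen at 1 of 2 B cell markers (PAX5), 1 of 3 myeloid markers, and 1 of 2 stromal, bone and endothelial markers. In the test of covered length described below, 4 of the 31 markers fell (beside 2.67% of all genes) and 0 rose (beside 2.88%). Those that fell were POU2AF1 of plasma cells (log2 difference -0.46, limma adjusted p = 0.0226), BLK of B cells (-0.31, 0.0478), CD3E of T cells (-0.53, 0.0167) and PECAM1 of endothelium (-0.37, 0.0257).

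Peaks of the 6 libraries within 50 kb of the 10 genes merged into 199 regions of 216003 in all. A region was called found in a library if it overlapped a peak of −log10 q 2 or more, and listed if it overlapped a peak of any strength. Regions listed in all 6 libraries numbered 81 of the 199 (40.7%, beside 31.5% of all regions), and regions found in all 6 numbered 70 (35.2%, beside 28.7%), and 76 were found in 1 library (38.2% beside 44.8%). IL6R had 37 regions and IL6ST 36, the most of the 10 genes, while DKK1 had 3. Inside the genes lay 56 regions, and 143 lay outside them. Some windows also hold other coding genes: PRKG1 beside DKK1, CCL18 and CCL4 beside CCL3, CERKL beside ITGA4, CCDC7 beside ITGB1, SHE and TDRD10 beside IL6R, IL31RA beside IL6ST and PKD2 beside SPP1.

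A region found in all 6 libraries overlapped the promoter window of 8 of the 9 genes with a promoter entry, beside 63.5% of 15812 coding genes. The exception was HGF, where peaks below −log10 q 2 were not looked for. Its nearest region to the start (chromosome 7, 81766480 to 81766808) lay 3.24 kb inside the gene and was listed in control library 1 alone, with a −log10 q of 5.31. For VEGFA, which had no promoter entry, the region over its end at the lower coordinate was taken in place of the start, and it was also found in every library.

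The bases covered by listed peaks of any strength within 50 kb were compared gene by gene, scaled to equal total covered length per library. None of the 10 genes passed limma with Benjamini-Hochberg adjustment over 19690 genes at 0.05, beside 5.55% of all genes (2.67% lower and 2.88% higher in knockdown). The lowest adjusted p was that of IL6R. At an unadjusted p under 0.05, IL6R, IL6ST and HGF had lower values in knockdown (3 of 10, beside 13.3% of all genes) and 0 had higher values (beside 8.91%). Differences were below 0 for 7 of 10 genes, beside 58.4% of all genes. Their median log2 difference was -0.10, beside -0.04 over all genes. Both values depended on the setting. Within 2 kb of the gene body 5 of the 10 genes lay below 0 (median -0.013, beside -0.016 over all genes). With peaks of −log10 q 2 or more 5 did (-0.031, beside 0.034), and at 5 or more 4 did (0.050, beside 0.103). In the other alternatives 6 to 10 of the 10 genes lay below 0.

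IL6R, the ligand-binding chain of the interleukin 6 receptor (chromosome 1, 154405343 to 154469450), had 12744, 11441 and 12121 covered bases in controls, against 8519, 8450 and 10028 in knockdown. Every knockdown library lay below every control library. After scaling, the means were 11595 ± 680 bases in controls and 9412 ± 877 in knockdown (SD, n = 3 each). The difference was -0.30 on the log2(bases + 200) scale (SE 0.08, limma adjusted p = 0.0501), which missed the threshold. It passed without knockdown library 3 (limma adjusted p = 0.0235). Of 16 alternatives it passed in 4 and missed in 12, with limma adjusted p from 0.00889 to 0.258.

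IL6ST, the signalling chain gp130 (chromosome 5, 55935095 to 55994963), was covered over 15600, 16801 and 17820 bases in controls and 11270, 12934 and 14302 in knockdown. These groups did not overlap before scaling, and after it the highest knockdown library (14868 bases) passed the lowest control library (14652 bases). The log2 difference was -0.26 (SE 0.09, limma adjusted p = 0.114). HGF (chromosome 7, 81699010 to 81770047) had 9970, 10528 and 9375 bases in controls and 7862, 7672 and 8552 in knockdown. Its groups did not overlap before or after scaling, and its log2 difference was -0.18 (SE 0.07, limma adjusted p = 0.175).

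The other 7 genes had log2 differences from -0.13 for DKK1 to 0.07 for ITGB1, each with a limma adjusted p of 0.464 or more. VEGFA had 10016, 8970 and 9393 bases in controls and 7859, 7638 and 8609 in knockdown (-0.11, SE 0.08). ITGA4 had 7480, 6505 and 6718 against 6335, 6211 and 6557 bases (0.01, SE 0.08). Both sets of knockdown values were lower as deposited, those of ITGA4 with overlap, and scaling to the smaller knockdown totals brought ITGA4 to the level of the controls. Without scaling, the median log2 difference over all genes was -0.16, that of the 10 genes was -0.22, and IL6R, IL6ST, HGF and VEGFA passed the test. In that unscaled fit their log2 differences were -0.42, -0.38, -0.30 and -0.23. More of all genes passed as well, as counted in the last section. The unadjusted limma p was under 0.05 for 8016 of 19690 genes without scaling, beside 4380 with it.

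**Figure D1:**
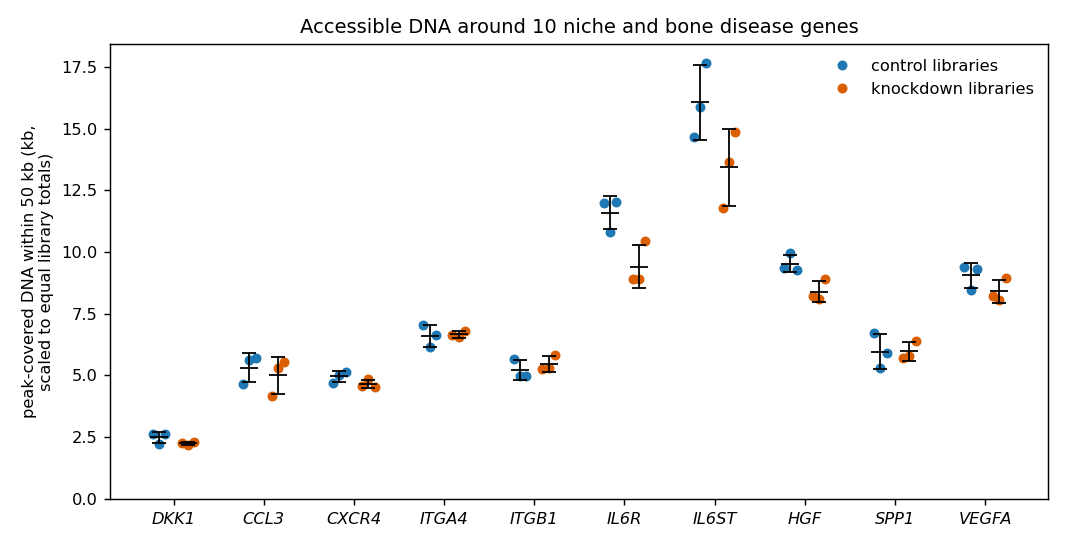
Points show, for each of the 10 genes, the kilobases covered by peaks within 50 kb of the gene body in each library after scaling to equal totals, with the group mean and its SD (n = 3 each). The control and knockdown points of IL6R and HGF stand apart, those of IL6ST overlap slightly, and those of ITGA4 and SPP1 lie at the same level.

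Single regions were compared by rank. Each of the 68050 regions listed in all 6 libraries was given its percentile by −log10 q within the library, 100 being the strongest, and 81 of them lay near the 10 genes. Of these 81 regions, 8 passed limma with Benjamini-Hochberg adjustment over all regions (9.88%, beside 7.2% of all). Lower in knockdown were 7 (8.64%, beside 3.73%) and higher was 1 (1.23%, beside 3.47%). The 7 lay near IL6R (2), IL6ST (2), VEGFA (2) and CCL3 (1), and the 1 near IL6R. The median difference was -0.72 percentile points, beside 0.15 over all regions, with 43 regions below 0 and 38 above. The percentile of 18 regions was lower in every knockdown than in every control library (22.2%, beside 13.4%), and that of 9 was higher (11.1%, beside 13.8%).

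The count of 7 lower regions depended on the libraries: it was 3, 2 and 2 without control library 1, 2 and 3 and 4 without knockdown library 1. The count over all regions moved with it, from 2535 lower to 772, 673, 958 and 1853 in the same 4 fits. Ordering regions by fold enrichment, the ratio of pileup to background, gave 4 regions past the test (4.94%, beside 4.2% of all), 3 lower (3.7%, beside 2.23%) and 1 higher (1.23%, beside 1.97%). The lower ones were the IL6R region upstream of the gene and the VEGFA region 12.2 kb from it, both described below, and an IL6ST region inside IL31RA (chromosome 5, 55893866 to 55894677; -23.3 points, limma adjusted p = 0.0441) singled out after its values were seen. Fold enrichment was lower in every knockdown than in every control library at 43 of the 81 regions (53.1%, beside 49.5%), and the −log10 q at 65 (80.2%, beside 76.3%). A region over a promoter window moved up in rank more often than others: 8.15% of 9082 such regions passed higher and 0.947% lower, against 2.75% and 4.15% of the 58968 elsewhere. For that reason ranks were also taken within each of these classes, an alternative chosen after seeing the data.

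**Figure D2:**
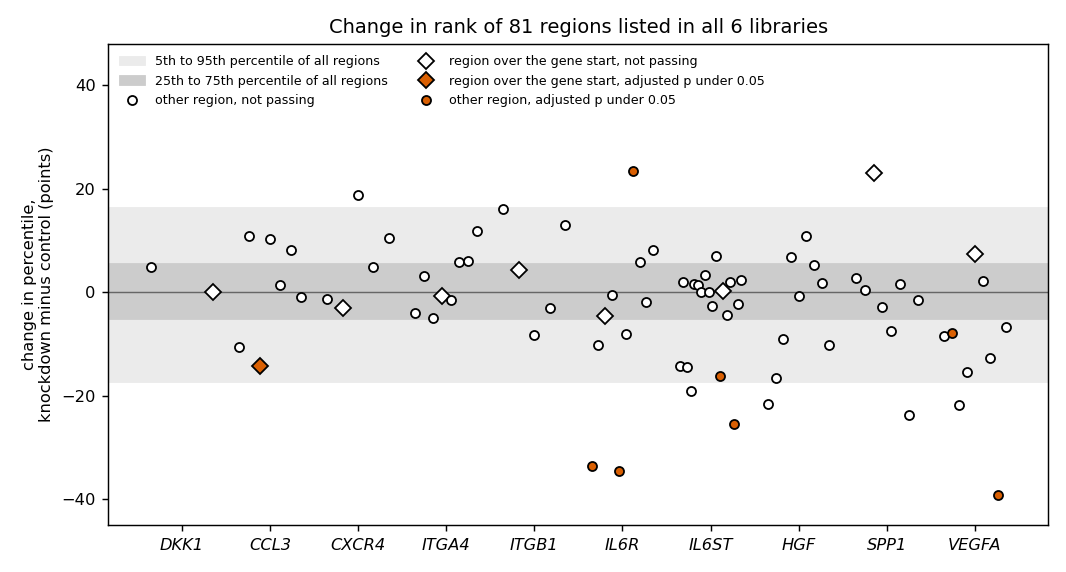
Each point is 1 of the 81 regions near the 10 genes, placed by its difference in percentile, knockdown minus control (points), with filled points for the 8 that passed the limma test; the bands mark the spread over all 68050 regions. The IL6R points span the scale from -34.5 to 23.4, whereas the 2 DKK1 points lie at 0.02 and 4.79.

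IL6R held regions that moved in opposite directions. The first (chromosome 1, 154384715 to 154386051) lies 19.3 kb upstream of the gene. Its −log10 q was 34.4, 39.0 and 30.8 in controls and 0.634, 2.36 and 5.75 in knockdown, with fold enrichments of 9.20, 10.2 and 8.30 against 2.11, 3.01 and 4.08. The knockdown libraries stood at percentiles of 0.317, 5.44 and 14.3, all below the controls at 41.9, 39.7 and 39.4. The percentile fell by 33.6 points (SE 6.94, limma adjusted p = 0.00871). This call held under all 9 alternatives that could be computed for it, with limma adjusted p from 0.0117 to 0.0418.

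A second region, inside IL6R 14.9 kb after the start (154420216 to 154420725), had a −log10 q of 60.0, 80.8 and 68.6 in controls and 10.7, 8.97 and 5.97 in knockdown. Its percentiles were 59.4, 63.4 and 63.6 against 36.8, 30.2 and 16.0, with no overlap. The drop of 34.5 points (SE 7.03, limma adjusted p = 0.00827) missed the threshold in fold enrichment order (limma adjusted p = 0.0569). It also missed it without control library 2 (limma adjusted p = 0.0569) or control library 3 (0.0503).

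The third region, inside the gene 39.4 kb after the start (154444707 to 154445613), was the 1 that rose. Its −log10 q was 63.3, 87.3 and 77.03 in controls and 70.9, 112 and 103 in knockdown, against the downward shift of most regions. Percentiles of 61.1, 65.9 and 67.0 in controls compared with 84.4, 91.9 and 87.9 in knockdown, and the groups stood apart. The percentile rose by 23.4 points (SE 3.23, limma adjusted p = 0.000923). The call held under all 10 alternatives, with a highest limma adjusted p of 0.0394. Fold enrichments were 9.91, 12.9 and 11.2 against 10.9, 15.2 and 13.5 and overlapped between the groups.

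The promoter region of IL6R itself (154404570 to 154406294) did not pass. Its percentiles were 91.0, 93.1 and 90.7 in controls and 81.1, 92.3 and 87.6 in knockdown, and knockdown library 2 lay within the controls. The difference was -4.61 points (SE 2.13, limma adjusted p = 0.207), and 12.6 points (limma adjusted p = 0.275) in fold enrichment order. Over 10 alternatives it ran from -16.9 to 12.6 points, with limma adjusted p from 0.0502 to 0.602. The values of IL6R thus differed by region, with 2 lower, 1 higher and the start without a call.

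**Figure D3:**
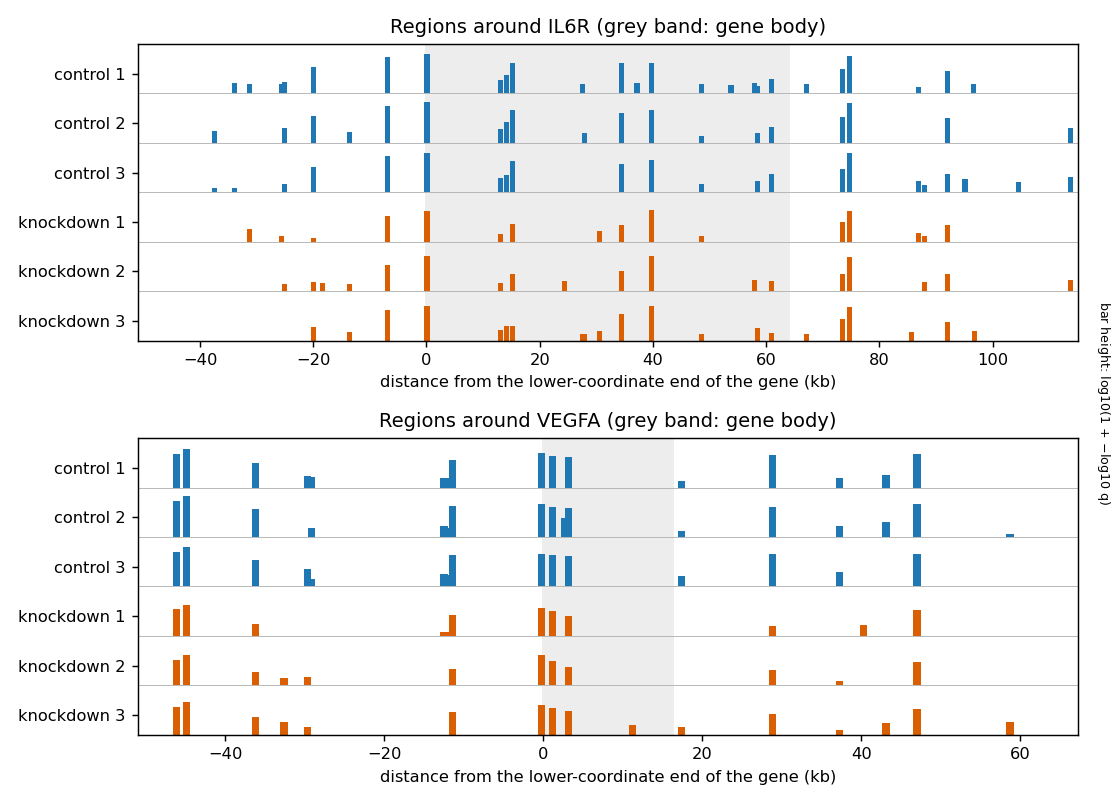
Rows are libraries (controls above knockdown), and bars of equal width mark the merged regions in the windows of IL6R and VEGFA. Each bar stands at the midpoint of its region, in kb from the lower-coordinate end of the gene body. Bar height is log10 of 1 plus the highest −log10 q of that library in the region. Near IL6R the bars 20 kb before the gene end and 15 kb inside it are low in the 3 knockdown rows, and the bar 39 kb inside is not.

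At IL6ST the start region (chromosome 5, 55994462 to 55995699) was among the strongest peaks, with a −log10 q of 439, 486 and 461 in controls and 277, 231 and 296 in knockdown. Its percentile was at least 98.9 in every library, and the difference was 0.22 points (SE 0.74, limma adjusted p = 0.901). Of the 18 IL6ST regions ranked, 2 passed, both with weaker peaks. One inside the gene 2.54 kb after the start (55991906 to 55992422) had a −log10 q of 14.4, 13.7 and 14.3 against 0.634, 1.08 and 2.17, and percentiles of 19.2, 13.9 and 19.6 against 0.317, 1.13 and 2.58. One 29.7 kb upstream (56024665 to 56025133) had a −log10 q of 24.99, 40.9 and 32.6 against 3.50, 3.02 and 7.32, and percentiles of 32.8, 40.9 and 41.0 against 10.5, 8.39 and 19.6. In both regions every knockdown library lay below every control library.

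The 2 IL6ST regions differed by -16.2 points (SE 4.54, limma adjusted p = 0.0390) and -25.4 points (SE 7.12, limma adjusted p = 0.0393). Each call was lost in 8 of 9 alternatives. Leaving out any 1 of the 6 libraries raised the limma adjusted p of the first to between 0.0606 and 0.121. For the second it stood between 0.0809 and 0.146 without any library other than knockdown library 3. In fold enrichment order the differences were -0.75 and -14.4 points (limma adjusted p = 0.852 and 0.0783).

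A further IL6ST region, 30.5 kb upstream (56025456 to 56025656), was found in the 3 controls alone, with a −log10 q of 10.04, 3.74 and 6.36. It lies next to the region 29.7 kb upstream. Such control-only regions, found in all 3 controls with no listed peak in knockdown, numbered 3 of the 199 (1.51%, beside 1.5% of all regions). Knockdown-only regions numbered 0, beside 0.102%. An exact test of 3 libraries against 3 cannot go below 0.1, so these were counted and not tested. The count of 3 became 7 without control library 3, 6 without knockdown library 1 and 5 without knockdown library 2. The count over all regions rose too, from 3247 control-only regions to between 4505 and 5804 with 1 library left out.

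Of the secreted factors, VEGFA had 2 regions past the rank test. The region with its highest −log10 q (chromosome 6, 43724622 to 43725997) lies 44.2 kb from the gene body, at 198, 255 and 215 in controls and 67.5, 62.9 and 83.4 in knockdown. Percentiles were 89.5, 92.6 and 90.9 against 83.5, 81.9 and 83.9, a small shift with no overlap, and the percentile fell by 7.87 points (SE 1.69, limma adjusted p = 0.0108). The call was lost in fold enrichment order (-0.59 points, limma adjusted p = 0.942) and without control library 2 (limma adjusted p = 0.0749).

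The other VEGFA region (43798664 to 43799347) lies 12.2 kb from the gene body. Its −log10 q was 88.9, 57.8 and 79.2 in controls and 2.75, 7.55 and 15.7 in knockdown, with fold enrichments of 14.1, 12.2 and 12.7 against 2.95, 4.85 and 6.33. Control percentiles were 70.9, 52.4 and 67.7 and knockdown percentiles 7.20, 26.4 and 39.9, with no overlap. The mean percentile fell by 39.2 points, the largest difference in means of the 8 regions (SE 8.35, limma adjusted p = 0.0106). It passed in fold enrichment order too (limma adjusted p = 0.0433) and missed without control library 1 (0.0786) or control library 3 (0.0648). Over the end of VEGFA at the lower coordinate (43769536 to 43770348), percentiles of 74.7, 65.5 and 69.2 against 74.8, 80.6 and 76.0 differed by 7.34 points (SE 3.62, limma adjusted p = 0.240).

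The start region of CCL3, the osteoclast-activating chemokine (chromosome 17, 36089577 to 36090786), had a −log10 q of 112, 113 and 114 in controls and 22.1, 25.8 and 40.3 in knockdown. Controls were nearly equal, at percentiles of 77, 73.8 and 77.3, and knockdown libraries lay below them at 57.5, 60.5 and 67.2. Only 9 start regions could be ranked, without that of HGF and with the gene end for VEGFA. Among them the CCL3 region alone passed, with a drop of 14.3 points (SE 4.11, limma adjusted p = 0.0440). The call was lost in 8 of 10 alternatives, among them fold enrichment order (-5.02 points, limma adjusted p = 0.656), ranking among promoter regions only (0.126), and each fit without 1 library other than knockdown library 3 (0.0824 to 0.173).

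The start region of DKK1, the Wnt inhibitor (chromosome 10, 52313674 to 52315168), is also the strongest of the 3 regions in its window. Its −log10 q was 164, 146 and 163 in controls and 73.8, 68.2 and 81.9 in knockdown, lower as at most regions. Its ranks overlapped, with percentiles of 85.8, 80.6 and 85.6 against 85.1, 83.6 and 83.5 (0.02 points, SE 2.12, limma adjusted p = 0.997). A weaker region 31.2 kb beyond the gene (52348870 to 52349349) had a −log10 q of 13.6, 1.97 and 11.7 in controls and no listed peak in any knockdown library. It was not found in control library 2 and so was not among the control-only regions. This region was singled out after its values were seen.

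SPP1 had a weak start region (chromosome 4, 87975490 to 87975872) with a −log10 q of 20.3, 22.1 and 10.3 in controls and 13.0, 14.8 and 19.3 in knockdown. Its percentiles of 27.1, 23.5 and 13.8 against 42.7, 44.3 and 46.4 did not overlap, but the difference of 22.98 points missed the threshold (SE 7.24, limma adjusted p = 0.0633). The strongest region in the window of SPP1 (88007148 to 88008571) lies inside PKD2 and differed by 1.68 points (limma adjusted p = 0.389). A control-only region, also inside PKD2 (88008725 to 88008884), had a −log10 q of 10.1, 8.96 and 13.5. HGF had its strongest region 21.7 kb upstream (chromosome 7, 81791706 to 81792534), with percentiles of 73.4, 59.9 and 65.2 against 63.8, 68.3 and 64.0 (-0.81 points, SE 4.66, limma adjusted p = 0.946). None of the HGF or SPP1 regions passed the rank test.

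Among the homing receptors, no region of CXCR4, ITGA4 or ITGB1 passed the rank test. Over the start of CXCR4 (chromosome 2, 136116203 to 136118357), the −log10 q was 233, 209 and 222 in controls and 86.0, 72.4 and 123 in knockdown. Percentiles of 92.2, 88.8 and 91.4 against 87.7, 84.8 and 90.7 overlapped, with a difference of -3.08 points (SE 1.70, limma adjusted p = 0.302). Over 10 alternatives that difference ran from -13.7 to 2.49 points, with limma adjusted p from 0.135 to 0.831. ITGA4 had one of the strongest start regions (chromosome 2, 181456542 to 181458283), with a −log10 q of 466, 412 and 441 against 226, 179 and 230. Its percentile stayed at 97.4 or more in every library (-0.72 points, SE 0.81, limma adjusted p = 0.652). Its control-only region lies inside CERKL 32.0 kb beyond the gene (181570906 to 181571426), with a −log10 q of 5.31, 5.96 and 5.90.

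At ITGB1, the beta chain paired with ITGA4, the start region (chromosome 10, 32957302 to 32958947) had a −log10 q of 209, 200 and 193 in controls and 140, 126 and 135 in knockdown. In rank it was higher in every knockdown library, at percentiles of 94.5, 93.5 and 92.1 against 90.5, 87.9 and 89.0. The difference of 4.23 points missed the threshold (SE 1.33, limma adjusted p = 0.0632).

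Width was compared after taking off the library median. The median log2 difference was still above 0, at 0.112 over all regions and 0.107 over the 81. Of the 81 regions, 4 passed limma with Benjamini-Hochberg adjustment, all wider in knockdown relative to the library median (4.94%, beside 4.36% of all, 3.75% wider and 0.61% narrower). They were the start regions of DKK1 (log2 difference 0.27, limma adjusted p = 0.0476), ITGA4 (0.29, 0.0389) and IL6ST (0.33, 0.0388), and a VEGFA region 324 bases inside the gene (43770535 to 43772159; 0.43, 0.0387). Each of these calls was lost under every alternative run, among them the fit without any 1 library, where limma adjusted p ranged from 0.0521 to 0.173. Over all regions, the counts of wider and of narrower calls also each fell to 0 in at least 1 of the fits without 1 library. In bases the start region of DKK1 was 1401, 1439 and 1425 wide in controls and 1338, 1400 and 1388 in knockdown, and without the median taken off the differences of DKK1 and ITGA4 were below 0, at -0.05 and -0.03.

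The partners of the 10 genes were read from 5 lists, by covered length within 50 kb as above. Of 13 Wnt inhibitors and bone formation genes 0 passed (beside 5.55% of all genes), with a median log2 difference of 0.07 beside -0.04 over all genes. WIF1, a secreted Wnt inhibitor, had the lowest p (0.38, limma adjusted p = 0.0824), followed by DKK3 (-0.38, limma adjusted p = 0.276). Of 16 osteoclast genes 2 fell (beside 2.67% of all genes) and 1 rose (beside 2.88%), with a median of -0.17. EPHB4, the receptor for the ephrin EFNB2, fell from 8652 ± 563 to 6237 ± 174 scaled bases (-0.46, limma adjusted p = 0.00808). CCR1, a receptor for CCL3, fell from 6300 ± 768 to 3881 ± 1249 bases (-0.71, limma adjusted p = 0.0380). TNFRSF11B (osteoprotegerin), the decoy receptor for RANKL, rose from 903.8 ± 86.5 to 1979 ± 677 bases (0.94, limma adjusted p = 0.0341). RANKL itself (TNFSF11) had 225, 537 and 151 covered bases in controls and 0 in each knockdown library, with a limma adjusted p of 0.212.

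In the homing list 1 of 21 genes fell (beside 2.67% of all genes) and 0 rose (beside 2.88%), with a median of -0.03. It was CXCL12, the ligand of CXCR4, with 3304, 3973 and 4286 covered bases in controls and 1982, 2477 and 2489 in knockdown, groups that did not overlap (-0.57, limma adjusted p = 0.0359). Of 13 interleukin 6 signalling genes 0 passed (beside 5.55% of all genes), with a median of -0.06. The receptor genes LIFR (-0.27, limma adjusted p = 0.0667) and OSMR (0.45, limma adjusted p = 0.110) came closest. IL6 itself had a start region found in every library, with a −log10 q of 115, 105 and 81.8 in controls and 37.1, 34.2 and 52.4 in knockdown.

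Of 17 growth factor and blood vessel genes 1 rose (beside 2.88% of all genes) and 0 fell (beside 2.67%), with a median of 0.02. It was PTN, a secreted heparin-binding growth factor, with 1300, 923 and 2223 covered bases in controls and 5610, 4662 and 2522 in knockdown (1.53, limma adjusted p = 0.0118). The groups did not overlap, and knockdown library 3 lay near control library 3. With only peaks of −log10 q 5 or more the PTN difference was -1.30 (limma adjusted p = 0.0597), of the opposite sign. Within 10 kb of the gene body none of the 5 list genes passed, with limma adjusted p of 0.183 for EPHB4, 0.278 for TNFRSF11B, 0.377 for CCR1, 0.652 for CXCL12 and 0.0623 for PTN. The calls also moved with 1 library. Without control library 3, limma adjusted p was 0.0505 for EPHB4, 0.103 for TNFRSF11B, 0.186 for CCR1 and 0.178 for CXCL12, and without control library 2 it was 0.0647 for PTN, 0.0938 for TNFRSF11B, 0.0913 for CCR1 and 0.115 for CXCL12. Without control library 1 it was 0.0993 for TNFRSF11B and 0.0677 for CCR1. Leaving out knockdown library 1 gave 0.121 for TNFRSF11B, 0.0665 for CCR1 and 0.0929 for CXCL12, and leaving out knockdown library 3 gave 0.0540 for TNFRSF11B.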

How the data were processed

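A total of 6 ATAC-seq peak lists were used, 1 per library. Per the submitters' processing notes, the authors called peaks with MACS2 and used hg38. The aligner, read filters, transposase shift and settings were steps not given in the sources used here. The deposited lists give a fold enrichment (a ratio of pileup to background) and the −log10 p and −log10 q per summit, all values of the authors' caller within 1 library, and a score, used only to read the columns. The fold and −log10 q served to describe, rank and filter peaks. They hold no read counts per region, so depth is unknown and was gauged by the background pileup recovered from the deposited values.

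Peaks of −log10 q 2 or more were merged over libraries and assigned within 50 kb of a gene body, with 1 bp of overlap, using RefSeq positions (GRCh38.p14) and no genome sequence; exons and introns were not told apart. Covered bases within 50 kb were counted from every listed peak, also those below −log10 q 2. They were scaled to equal totals, taken as log2(bp + 200) and tested over genes covered in at least 3 libraries. Percentiles of −log10 q and log2 widths were tested over 68050 regions. All tests used limma 3.58.1 (trend, robust) in R 4.3.3 with Benjamini-Hochberg adjustment over all genes or regions, without a replicate block. The block was left out because the deviations of same-numbered libraries from their group means correlated at 0.059 or less. The scripts were tested on simulated data. Figures and counts used Python 3.11.15. P-values cover the spread between libraries labelled as biological replicates.

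The members and lists were chosen with earlier results of these data known. Named were all members, the region at or nearest each start, the strongest region by median −log10 q, group-specific regions, regions passing a test, and list genes passing the covered length test (up to 4, otherwise the 2 of smallest p). RANKL, IL6 and the DKK1 region 31.2 kb beyond the gene were named in addition. TATAAA and GGGCGG were added to the motifs after the sequences were seen. Alternatives were window size, scaling, pseudocount, filters, peak thresholds, lists of equal length, fold order, a replicate block and each library left out.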

Additional observations from a re-analysis of the deposited data

How the results depend on the processing

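Covered length per gene called 0 of the 10 genes lower in the test as described, 4 without scaling, 1 with a pseudocount of 1000 bp, and 0 to 1 with each library left out (1 without knockdown library 3). Over all genes, 525 lower and 567 higher calls became 4136 and 458 without scaling, 905 and 3608 with peaks of −log10 q 5 or more, 123 and 126 within 10 kb, 24 and 27 within 2 kb, 194 and 149 with −log10 q 2 or more, and 223 and 216 with lists of equal length. With each library left out they ranged from 94 to 584 lower and from 187 to 551 higher.

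The direction of the log2 difference in covered length turned as follows, among genes without a call and among the called genes TNFRSF11B, CXCL12 and PTN. Without scaling they were -0.11 for ITGA4, -0.057 for ITGB1 and -0.12 for SPP1. Within 10 kb they were 0.050 for DKK1, 0.0092 for CCL3 and -0.30 for SPP1, and within 2 kb 0.069 for DKK1, 0.19 for CCL3, 0.051 for CXCR4, -0.17 for SPP1, 0.30 for DKK3, -0.041 for TNFRSF11B and 0.0033 for CXCL12. With −log10 q 2 or more they were 0.078 for DKK1 and 0.066 for CXCR4. At 5 or more they were 0.24 for DKK1, 0.19 for CXCR4, 0.0095 for HGF, -0.00027 for SPP1, 0.091 for VEGFA, -0.0074 for WIF1, 0.028 for DKK3 and -1.30 for PTN. With each library left out, CCL3 ranged from -0.18 to 0.032 (above 0 without knockdown library 1), ITGA4 from -0.037 to 0.057 and SPP1 from -0.076 to 0.092. ITGA4 and SPP1 were below 0 without control library 2, and without knockdown library 3 at -0.0032 and -0.043. The cause was not tested.

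The rank test called 7 member regions lower and 1 higher. Fold order gave 3 lower (3.7%, beside 2.23% of all regions). Regions of −log10 q 5 or more gave 3 of the 58 then tested, and leaving out each library gave 2 to 8 lower and 1 to 3 higher. Shares over all regions are not given for the −log10 q 5 setting or the fits without 1 library. The member counts there cannot be judged against them. Reversed differences were 12.6 points for the IL6R start, 2.49 for CXCR4, 8.73 for ITGA4 and 14.8 for the strongest HGF region in fold order. They were -6.09 for the DKK1 start ranked among promoter regions, an alternative chosen after seeing the data, -1.68 for it without control library 2, and -0.51 without knockdown library 1. With each library left out, the DKK1 start ranged from -1.68 to 0.92 points and the strongest HGF region from -3.93 to 2.83.

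The width test called 4 member regions and 0 without the median taken off (-0.029 for ITGA4, -0.048 for DKK1), 0 with −log10 q 5 or more, and 0 to 0 with each library left out. Control-only regions near the 10 genes numbered 3, and 6 with any listed peak as presence, 0 with −log10 q 10 or more, 0 within 10 kb, 9 with lists of equal length, and 4 to 7 with each library left out, where knockdown-only regions numbered 0 to 1. Over all regions, 3247 control-only regions became 4505 to 5804 with each library left out, and 221 knockdown-only regions became 336 to 1132. Shares over all regions are not given for the other settings, so the member counts there cannot be judged against them.

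Replicate numbers gave no pairing. In covered length, the deviations of same-numbered libraries from their group means correlated at 0.036 to 0.059, although each library correlated best with its own number there. With a replicate block, covered length called 2 of the 10 genes lower (IL6R, adjusted p = 0.0291, and IL6ST, adjusted p = 0.0264, by limma), beside 632 lower and 672 higher calls over all genes (525 and 567 without the block). The width test then called 0 member regions and 0 of all regions. The block left IL6R at a log2 difference of -0.30.

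Reads per region were not available, so weak peaks near the threshold of a list limit the precision of presence, and 3 libraries per group limit each test.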
